A study of Mus musculus with 2 samples.

Results

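The genes described here encode the core machinery that sets how much actin stands as monomer and how much as filament. They are the cytoplasmic actins Actb and Actg1, the beta thymosins Tmsb4x and Tmsb10, the actin-depolymerising proteins Cfl1, Cfl2 and Dstn, the profilins Pfn1 and Pfn2, and the filament-binding protein drebrin, Dbn1. They were chosen by name, with earlier results of these data known, and all 10 were found among the 43346 Ensembl genes of the tables. Total RNA was sequenced from mouse midbrain at embryonic day 15.5 in the strain B6NCrl, from healthy embryos, with no treatment named in the labels. There was 1 group with 2 libraries: replicate 1 came from a pool of 78 embryos and replicate 2 from a pool of 62, with male and female embryos mixed in each. A pool gives 1 value for all its embryos and cells, so fewer cells of a type and less RNA per cell cannot be told apart. The libraries held 38966386 expected counts in replicate 1 and 40419493 in replicate 2. Of 9 midbrain marker genes, 8 reached 1 TPM in each library (TPM is a transcript level corrected for length and scaled to a fixed total per library), and the ninth, En2, stood at 1.21 and 0.76 TPM.

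Actin exists as single molecules and as filaments that grow at one end and shorten at the other. Beta thymosins hold single molecules in reserve, profilins load them for addition to a growing end, and cofilins and their relative destrin cut and disassemble old filaments. In the developing brain this cycle moves growth cones, migrating neurons and young dendritic spines, and drebrin lies along filaments in neurites and spines.

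The related genes differ in sequence to different degrees, which bears on how surely short reads can be given to one gene of a family. The coding sequences of Actb and Actg1 (1128 nt each, GENCODE M21) were 88.7% identical, the closest pair among the members. The opening 36 bases of both coding sequences are shown because the 2 actin proteins differ near their start. Capitals mark the 9 bases that differ.
Actb: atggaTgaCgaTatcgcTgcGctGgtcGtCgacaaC
Actg1: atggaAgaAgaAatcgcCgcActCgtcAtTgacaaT

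Tmsb4x and Tmsb10 each have a coding sequence of only 135 nt, for 44 amino acids, and are shown whole. They were 70.4% identical, and capitals mark the 40 bases that differ.
Tmsb4x: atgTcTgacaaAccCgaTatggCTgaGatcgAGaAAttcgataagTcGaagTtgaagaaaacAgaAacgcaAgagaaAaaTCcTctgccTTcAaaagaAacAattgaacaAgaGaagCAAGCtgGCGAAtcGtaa
Tmsb10: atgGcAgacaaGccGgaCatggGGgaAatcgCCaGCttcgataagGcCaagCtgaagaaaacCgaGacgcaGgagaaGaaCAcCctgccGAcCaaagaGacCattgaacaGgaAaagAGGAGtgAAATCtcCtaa

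The other families were less alike. Pfn1 and Pfn2 were 61.5% identical over 423 aligned bases. Over the bases that could be aligned without a gap, Cfl1 was 71.5% identical to Cfl2 and 70.1% to Dstn, and Cfl2 was 66.9% identical to Dstn. The annotated coding sequence of Cfl1-201, the only Cfl1 transcript of the tables, runs to 684 nt, against 501 nt in Cfl2 and 498 nt in Dstn.

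All 10 genes were among the 1400 highest of the 43346, and 5 of them were among the highest 33. Together they took 2.06% of all TPM in replicate 1 and 2.11% in replicate 2, and 1.65% of the expected counts of Ensembl genes in each library. The median of the 10 was 1500 TPM, against a median of 17.0 TPM over the 15347 genes that reached 1 TPM in each library. Posterior SDs, the authors' measure of uncertain read assignment, were at most 0.0406% of a member's count.

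The cytoplasmic actins were the highest family. Actb (chr5:142903115-142906754, minus strand, mm10) had 5626.17 TPM in replicate 1 and 5614.50 TPM in replicate 2 (5620.34 ± 8.252, SD, n = 2). It was the tenth highest gene by TPM, rank 6 among protein-coding genes and rank 2 by expected count, with 238215 and 245505 counts. Its neighbours in rank were Hba-a2, an alpha globin gene, at 6677.00 and 5213.13 TPM, and the miRNA gene Gm22133 at 5594.60 and 5176.92 TPM. RNA above 200 nt was extracted, so the Gm22133 value is not a measure of mature miRNA. The range of Hba-a2 over the 2 libraries took in both Actb values. Actg1 (chr11:120345690-120348542, minus strand) had 3679.62 TPM in replicate 1 and 3606.80 TPM in replicate 2 (3643.21 ± 51.49). Actb stood above Actg1 in each library, by 1.53-fold and 1.56-fold, a log2 ratio of 0.63 ± 0.02 (SD, n = 2). Actb held 60.5% and 60.9% of the summed TPM of the pair.

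The beta thymosins, which bind single actin molecules one to one, followed closely. Tmsb4x (chrX:167207093-167209315, minus strand) had 3446.57 TPM in replicate 1 and 3508.91 TPM in replicate 2 (3477.74 ± 44.08). Tmsb10 (chr6:72957347-72958748, minus strand) had 3384.03 and 3869.14 TPM (3626.59 ± 343.0). Tmsb4x was the higher in replicate 1 and Tmsb10 in replicate 2, so their order was not resolved: the log2 ratio of Tmsb4x over Tmsb10 was 0.03 in replicate 1 and -0.14 in replicate 2 (-0.06 ± 0.12). Thymosin transcripts are short, and their order by TPM rests on the division by length. Tmsb10, with an effective length of 469.6 nt in replicate 1, was rank 17 by TPM and rank 64 by expected count. Before division by length Tmsb4x exceeded Tmsb10, with a mean log2 ratio of counts of 0.45.

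Among the filament-disassembling genes Cfl1, the non-muscle cofilin, dominated. Cfl1 (chr19:5490455-5495201, plus strand) had 2432.50 TPM in replicate 1 and 2412.82 TPM in replicate 2 (2422.66 ± 13.92). Dstn, which encodes destrin, also called actin-depolymerising factor, lies at chr2:143915320-143943324 on the plus strand and had 316.51 and 316.08 TPM (316.295 ± 0.3041). Cfl2, the cofilin best known from muscle, lies at chr12:54858809-54862877 on the minus strand and was the lowest member, at 122.56 and 122.44 TPM (122.50 ± 0.08485). In rank it stood between Lrpap1, at 126.47 and 118.65 TPM, and a gene with no matched symbol, at 109.17 and 135.80 TPM. Cfl1 made up 84.7% and 84.6% of the family's TPM, Dstn 11.0% and 11.1%, and Cfl2 4.27% and 4.29%. The log2 ratio of Cfl1 over Dstn was 2.94 ± 0.01, that of Cfl1 over Cfl2 was 4.31 ± 0.01, and that of Dstn over Cfl2 was 1.37 in each library.

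The profilins were nearly equal in level. Pfn1, the widely expressed profilin (chr11:70651850-70654644, minus strand), had 545.84 TPM in replicate 1 and 536.77 TPM in replicate 2 (541.305 ± 6.413). Pfn2, the profilin known for its abundance in brain (chr3:57841895-57848079, minus strand), had 579.41 and 576.63 TPM (578.02 ± 1.966). Pfn1 was below Pfn2 in each library, with a log2 ratio of -0.09 ± 0.01, so Pfn2 supplied 51.5% and 51.8% of profilin TPM. The difference was small but larger than the spread of either gene between the pools. Its size depends on transcript length: the log2 ratio of expected counts, not divided by length, was -1.24. Pfn2 was the higher by either measure. The leading Pfn2 transcript was 1827 nt long in the tables, against 2342 nt in GENCODE M21, and TPM is divided by the length of the model used.

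Drebrin, Dbn1 (chr13:55473429-55488111, minus strand), had 510.15 TPM in replicate 1 and 524.26 TPM in replicate 2 (517.205 ± 9.977). It stood just under the profilins and above Dstn and Cfl2. In the order of the 10 levels, Actg1 and Tmsb10 overlapped between the libraries, as did Tmsb10 and Tmsb4x. The other 7 pairs of neighbours were separated in both libraries.

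**Figure D1:**
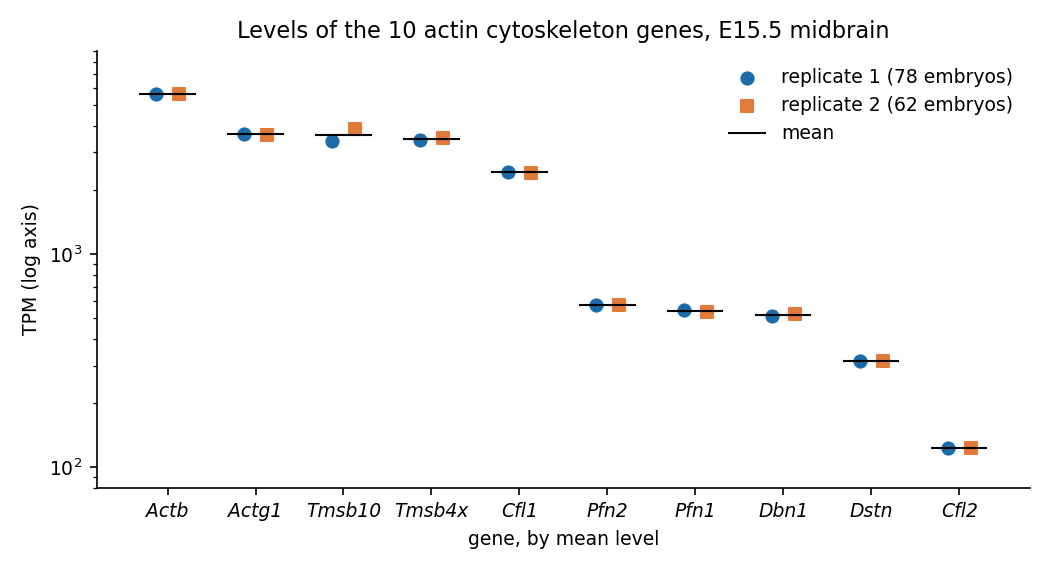
TPM of each gene on a log axis, with circles for replicate 1, squares for replicate 2 and a line for the mean. The genes run from Actb at 5620.34 TPM to Cfl2 at 122.50 TPM, and Tmsb10 has the widest gap between its 2 libraries.

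Summed by family, the actins had 9305.79 TPM in replicate 1 and 9221.30 TPM in replicate 2. The thymosins had 6830.60 and 7378.05 TPM, or 0.734 and 0.800 thymosin transcripts per actin transcript. The ADF/cofilin genes had 2871.57 and 2851.34 TPM, 0.309 per actin transcript in each library. The profilins had 1125.25 and 1113.40 TPM, 0.121 per actin transcript in each library. Drebrin had 0.0548 and 0.0569 transcripts per actin transcript. Of these 4 partner families the sequestering thymosins were the highest by TPM in both libraries, and theirs was the ratio to actin that differed most between the pools. The size of these ratios depends on division by length. In replicate 1 the effective length was 469.6 nt for Tmsb10 and 668.3 nt for Tmsb4x, against 1813 nt for Actb. By expected count in replicate 1, Tmsb4x had 53804 and Tmsb10 37115, against 59602 for Cfl1, 13396 for Dstn and 8133 for Cfl2. Cfl1 was thus above either thymosin gene, but the thymosins together still exceeded the ADF/cofilin genes. Family ratios without division by length were not computed. These are RNA ratios, and proteins were not measured.

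**Figure D2:**
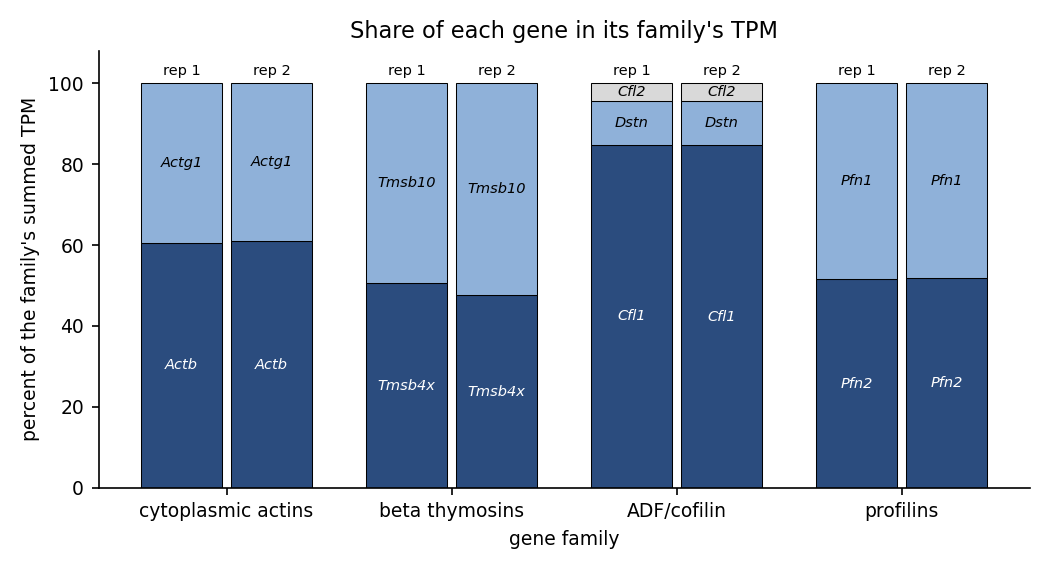
Percent of each family's summed TPM taken by each gene, with replicate 1 left of replicate 2. Cfl1 takes 84.7% and 84.6% of its family, while the thymosins and the profilins divide nearly evenly.

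The pools were compared by the ratio of counts in replicate 1 over replicate 2, scaled by TMM library sizes. With 1 library on each side there is no test of significance, and intervals cover counting error only. Of 18269 genes that averaged at least 10 counts, 1492 (8.17%) differed by more than 1.5-fold in either direction, and 0 of the 10 members did. Members are all abundant genes, so the comparison with abundant genes is the closer one. Among 1767 genes at 100 TPM or more log2 ratios had an SD of 0.10 and a median size of 0.05. The members' log2 ratios ran from -0.19 to 0.03, with 7 higher in replicate 1 and 3 higher in replicate 2, and a median of 0.0016. Scaling by spike-in totals turned this count to 9 and 1, since it moved the median log2 ratio of all genes tested to 0.087, against 0.0011 with TMM.

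Tmsb10 was the exception among the members. Its log2 ratio was -0.19 (95% counting interval -0.21 to -0.17), that is 1.145-fold higher in replicate 2, and only 58 of the 1767 abundant genes (3.28%) had a larger ratio in size. For each of the other 9 members, more than 50% of those genes had a larger ratio, from 58.8% for Dbn1 to 98.9% for Cfl2. Dbn1 had a log2 ratio of -0.04 and Tmsb4x one of -0.03, both lower in replicate 1, and Actg1 had one of 0.03. The counting intervals of Tmsb10, Dbn1, Tmsb4x and Actg1 left out 0, and those of the other 6 members included it.

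Marker lists were compared between the pools in the same way. Those of 4 cell types are given first, and 0 of their 20 genes passed 1.5-fold. The median log2 ratio of replicate 1 over replicate 2 was -0.06 over 5 neuronal genes, which went both ways, 0.17 over 5 progenitor genes, 0.36 over 5 erythroid genes and 0.32 over 5 microglial genes. All 5 genes of each of these lists were at 1 TPM or more in both libraries. Summed, the neuronal list had 3358 and 3385 TPM in replicates 1 and 2, and that of the erythroid list 14767 and 11522 TPM. For microglia the sums were 120 and 94.8 TPM, and for progenitors 1505 and 1425 TPM. In the other lists the median log2 ratio was 0.16 over 4 meningeal genes and 0.13 over 6 smooth muscle and pericyte genes. It was 0.10 over 4 endothelial genes and -0.02 over 9 midbrain genes. The midbrain genes went both ways. En1 (0.44), Pax3 (0.35) and Meis2 (0.26) were higher in replicate 1, with counting intervals that left out 0. Otx2, Otx1, Foxa2, Pax7 and Lmx1b had log2 ratios below 0, with intervals that included it. In the midbrain list 1 gene passed 1.5-fold, En2, at 0.66 (95% counting interval 0.20 to 1.15). Of the muscle markers, described further on, 2 of the 4 tested passed. The part of the marked cell types in the Tmsb10 difference was not tested.

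**Figure D3:**
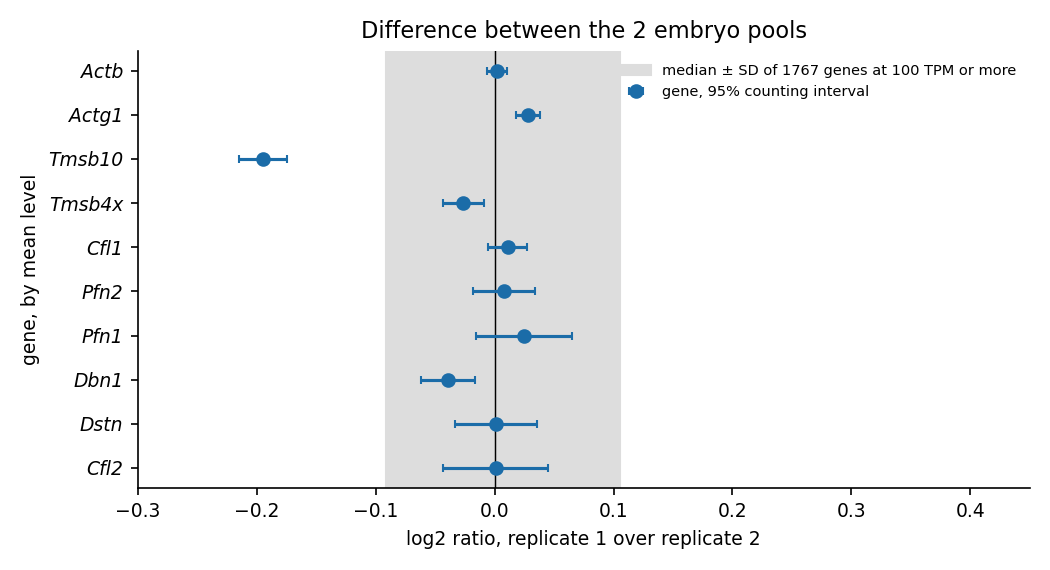
Log2 ratio of replicate 1 over replicate 2 for each gene (points, with 95% counting intervals); the grey band is the median ± SD of the 1767 genes at 100 TPM or more. Tmsb10, at -0.19, is the member outside the band.

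Read assignment could touch these values where the genome holds copies of a member. A search of annotated transcripts for the members' coding sequences, counting a gene as a copy where at least 50% of the coding sequence aligned, found 28 other genes, muscle actins included, of which 22 were pseudogenes and 12 reached 1 TPM on average. Copies were found for Actb (16), Actg1 (13), Cfl1 (6) and Tmsb10 (5), some shared between the actins, and none for the other 6 members. Both actins shared their 2 highest copies, the processed pseudogene Gm12715, at 49.9 TPM in replicate 1 and 35.17 TPM in replicate 2, and Lrrc58, a protein-coding gene with a matching stretch, at 34.4 and 33.92 TPM. Gm12715 was 99.6% identical to Actg1 and 88.8% to Actb, and Lrrc58 was 85.9% identical to Actg1 and 93.2% to Actb. Actb had no copy at 95% identity or more. The highest Tmsb10 copies were Gm3788, a pseudogene 99.3% identical, at 60.07 and 38.42 TPM, and Gm9844, annotated as protein coding and 98.5% identical, at 28.66 and 28.32 TPM. For Cfl1 the pseudogene Gm6180 was 98.8% identical over 72.8% of the annotated 684-nt coding sequence, which is longer than those of Cfl2 and Dstn. Gm6180 had 8.23 and 6.05 TPM, and the other copies of Cfl1 were listed at 0. Copies at 95% identity or more summed to 1.72% and 1.29% of the Actg1 level, 2.62% and 1.72% of the Tmsb10 level, and 0.338% and 0.251% of the Cfl1 level. Summed, these Tmsb10 copies were thus higher in replicate 1, against the direction of Tmsb10 itself. The gene Snx32 overlaps exons of Cfl1 by 468 nt on the opposite strand and had 72.65 and 76.36 TPM. Whether the counting used strand is not given in the sources used here, so reads from that stretch may count for either gene.

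The 10 genes had 44 transcripts in the tables, and 8 of the genes gave nearly all their abundance to 1 of them. The leading transcript took 99.22% and 99.28% in Actb, 98.69% and 98.46% in Tmsb4x, 97.25% and 97.39% in Tmsb10, 98.04% and 98.92% in Pfn1, and 98.3% and 98.0% in Pfn2. Cfl1, Cfl2 and Dstn had only 1 transcript in the annotation. Actg1 divided between Actg1-202, at 59.07% and 60.52%, and Actg1-204, at 40.23% and 38.6%. Both hold the same coding sequence of 1128 nt. Actg1-204 begins at the start codon and lacks the 118-nt leading exon of Actg1-202, so the division is between models that differ only in untranslated sequence. Their expected counts carried posterior SDs between 1052.44 and 1111.58 counts, on 58015 to 97537 counts. Beyond that leading exon the models differ by only a few bases, so most reads could fit either. The posterior SDs cover assignment error alone, and the division was not checked in another way.

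Dbn1 is the member with a known developmental switch in splicing. The embryonic form, drebrin E, lacks an exon that the adult form, drebrin A, includes in mature neurons. In the annotation this exon is chr13:55476636-55476773 (minus strand, mm10), 138 nt or 46 codons, and it keeps the reading frame. It is shown because the isoform result turns on it. Capitals mark the exon and lower case the 12 bases on either side, and the embryonic form joins those flanks directly.
Dbn1 embryonic form: accaccgaccaggcagccacctgg
Dbn1 adult form: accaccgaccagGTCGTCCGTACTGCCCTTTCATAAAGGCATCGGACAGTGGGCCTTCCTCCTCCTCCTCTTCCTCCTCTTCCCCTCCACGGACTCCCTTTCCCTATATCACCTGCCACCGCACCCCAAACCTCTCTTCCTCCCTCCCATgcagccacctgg

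Most Dbn1 RNA was in transcripts of the embryonic form, and the adult form was rare. The transcripts that skip the exon, Dbn1-203 and Dbn1-202, took 91.9% of Dbn1 abundance in replicate 1 and 91.1% in replicate 2 (91.5% ± 0.580, SD, n = 2), or 469 and 478 TPM. Dbn1-201, the only annotated transcript with the exon, took 0.820% and 0.910% (0.865% ± 0.0636), or 4.16 and 4.79 TPM. The embryonic transcripts exceeded the adult one 113-fold in replicate 1 and 99.7-fold in replicate 2. The adult transcript rests on an estimated 289.8 and 343.8 counts, with posterior SDs of 68.38 and 68.3 counts, so the estimate stood above its own assignment error in both libraries. Counted only among transcripts that span the site by skipping or holding the exon, its share was 0.879% and 0.993%. Junction reads were not analysed here, and the share comes from the authors' division of reads among overlapping transcripts.

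The 2 embryonic transcripts differ from each other in small ways. Dbn1-203 took 58.94% and 60.52%, and Dbn1-202 took 32.97% and 30.57%. Their coding sequences have 1983 nt and 1986 nt with the stop codon, and their other differences are in the outer ends. A further 2.06% and 2.30% went to Dbn1-206, a retained-intron transcript that runs through the exon and its introns. Another 5.21% and 5.71% went to 5 short transcripts that neither overlap nor span the exon. In all, 4 Dbn1 transcripts annotated as retained introns took 7.14% and 7.66% of Dbn1, against 0.570% and 0.540% for such transcripts of Actb, 0.410% and 0.590% for Actg1 and 1.03% and 0.900% for Pfn1. These shares depend on the level of each gene and on how many such transcripts are annotated. In TPM the retained-intron transcripts had 36.4 and 40.1 for Dbn1 and 32.3 and 30.3 for Actb. They had 15.1 and 21.3 TPM for Actg1 and 5.62 and 4.81 TPM for Pfn1. Total RNA includes unspliced molecules, and how much of the Dbn1 share they make up was not tested.

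**Figure D4:**
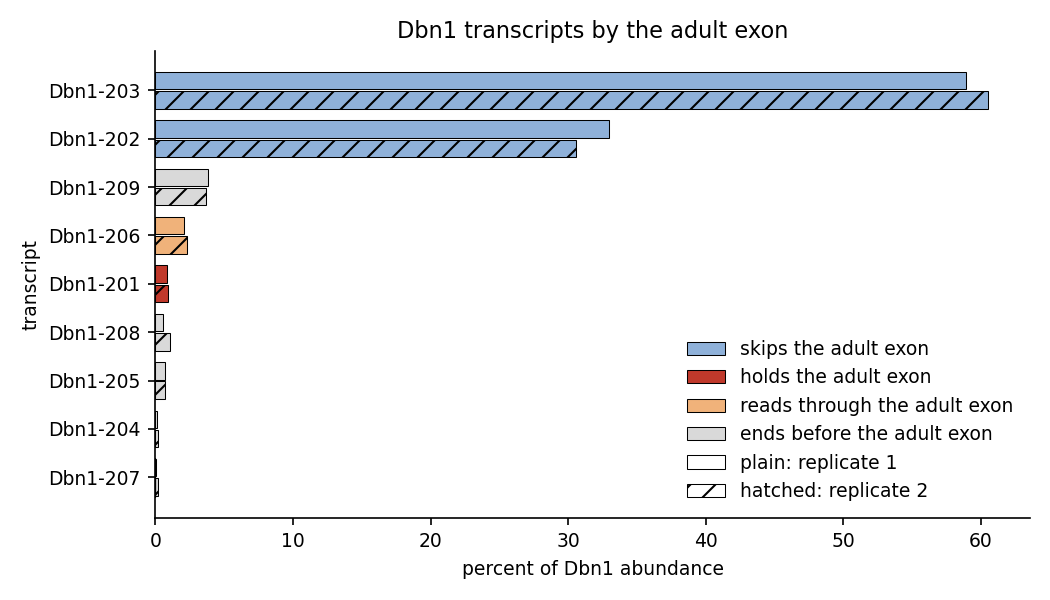
Percent of Dbn1 abundance taken by each of its 9 annotated transcripts, with plain bars for replicate 1 above hatched bars for replicate 2, coloured by their relation to the adult exon. The exon-skipping transcripts Dbn1-203 and Dbn1-202 hold 91.9% and 91.1% together, and the exon-holding Dbn1-201 holds 0.820% and 0.910%. Transcripts drawn as ending before the exon neither overlap nor span it, and on which side they lie was not determined.

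The other genes of the actin cycle were described by 10 lists. Of 96 listed genes found in the tables, 87 were at 1 TPM or more in both libraries. On average over the libraries none stood above the members' median of 1500 TPM, and 22 stood above Cfl2, the lowest member. Of the 92 with enough counts, 1 (1.09%) differed by more than 1.5-fold between the pools, against 8.17% of all genes tested. The listed genes were not matched to all genes by level, so the 2 shares are not a like comparison. Of the 1492 genes behind the 8.17%, 814 also had a counting interval that left out 1.

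Other forms of the members' own families were low. The muscle actins, which build contractile filaments, were all 4 at 1 TPM or more, with a median of 8.47 TPM in replicate 1 and 3.94 TPM in replicate 2 (mean 6.21). The highest on average was cardiac actin, Actc1, at 44.81 TPM in replicate 1 and 2.44 TPM in replicate 2. Acta2, smooth muscle actin, had 11.45 and 10.28 TPM, and the lowest, Actg2, had 1.91 and 1.80 TPM. Actc1 was the 1 listed regulator past 1.5-fold, with a log2 ratio of 4.19 (95% counting interval 3.87 to 4.54).

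The muscle marker list, which holds Actc1, was read beside it. Of 6 skeletal and cardiac muscle markers, 2 were at 1 TPM or more in both libraries, and the list summed to 61.3 TPM in replicate 1, against 8.78 TPM in replicate 2. Without Actc1 the other 5 summed to 16.5 and 6.34 TPM, and without Actc1 and Tnnt2 the other 4 summed to 5.77 and 5.78 TPM, omissions chosen after seeing the data. Tnnt2, cardiac troponin T, named after its values were seen, had 10.73 and 0.56 TPM, and Acta1, skeletal muscle actin, had 5.49 and 5.44 TPM. The defining skeletal muscle genes were near 0: Myod1 at 0.07 and 0.12 TPM, Myog at 0.03 and 0.09 TPM and Myh3 at 0.18 and 0.13 TPM. The part of muscle cells in the Actc1 difference was not tested. The muscle actins summed to 63.7 and 20.0 TPM, against 9305.79 and 9221.30 TPM for the cytoplasmic actins.

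Of the other beta thymosins, 3 of 4 were at 1 TPM or more. Tmsb15b2 had 58.13 and 56.46 TPM and Tmsb15b1 had 26.09 and 25.0 TPM, while Tmsb15a was listed at 0. Posterior SDs were 7.47 and 7.78 counts on 478 and 476 for Tmsb15b2, and 5.84 and 5.99 counts on 209 and 204 for Tmsb15b1. Assignment was less sure for Tmsb15l, named here for that reason, with posterior SDs of 10.9 and 11.5 counts on 114 and 115. Of the other profilins, which are known from testis, Pfn4 had 9.72 and 10.45 TPM and Pfn3 had 0.54 and 0.39 TPM.

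Cofilin is switched off by phosphorylation. Of its kinases and phosphatases, all 7 that were found passed 1 TPM, with a median of 13.9 TPM. Limk2, a LIM kinase that phosphorylates cofilin, was the highest at 141.97 TPM in replicate 1 and 156.3 TPM in replicate 2, and its relative Limk1 had 20.61 and 17.58 TPM. The lowest was the kinase Tesk2, at 2.38 and 2.12 TPM. Partners of cofilin in filament turnover all passed 1 TPM, with a median of 78.7 TPM over 10 genes. They were led by Wdr1, which speeds disassembly of cofilin-bound filaments, at 171.2 and 169.37 TPM, and the coronin Coro1c at 161.93 and 167.17 TPM, and the lowest was Gmfg at 2.62 and 2.79 TPM.

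Genes that start or elongate filaments were described by list. Of 15 Arp2/3 subunits and activators, which build branched networks, 14 passed 1 TPM, with a median of 121 TPM. The subunits Arpc4, at 351.37 and 351.07 TPM, and Arpc2, at 325.48 and 324.07 TPM, led, and Was, an activator known from blood cells, had 0.11 and 0.14 TPM. Of 19 formins and other elongation factors, 16 passed, with a median of 7.16 TPM. Evl, an Ena/VASP protein that promotes elongation, had 142.54 and 139.71 TPM, Spire2 had 36.63 and 35.6 TPM, and Fmn1 had 0.33 and 0.32 TPM.

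Capping and severing genes were at a median of 20.8 TPM, and 12 of 15 passed 1 TPM. Over those 12 alone the median was 67.8 TPM. Capzb, a subunit of the protein that caps growing ends, had 269.28 and 267.53 TPM, and Tmod2, a neuronal tropomodulin that caps the other end, had 225.87 and 243.8 TPM. Scin, which encodes the severing protein scinderin, had 0.03 and 0.05 TPM. The 17 filament side binders and bundlers all passed, with a median of 86.8 TPM. Marcksl1 was the highest of all listed genes, at 1508.22 and 1425.35 TPM, followed by the bundling protein fascin, Fscn1, at 420.59 and 413.03 TPM, while Actn2, a muscle alpha-actinin, had 2.29 and 1.93 TPM.

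**Figure D5:**
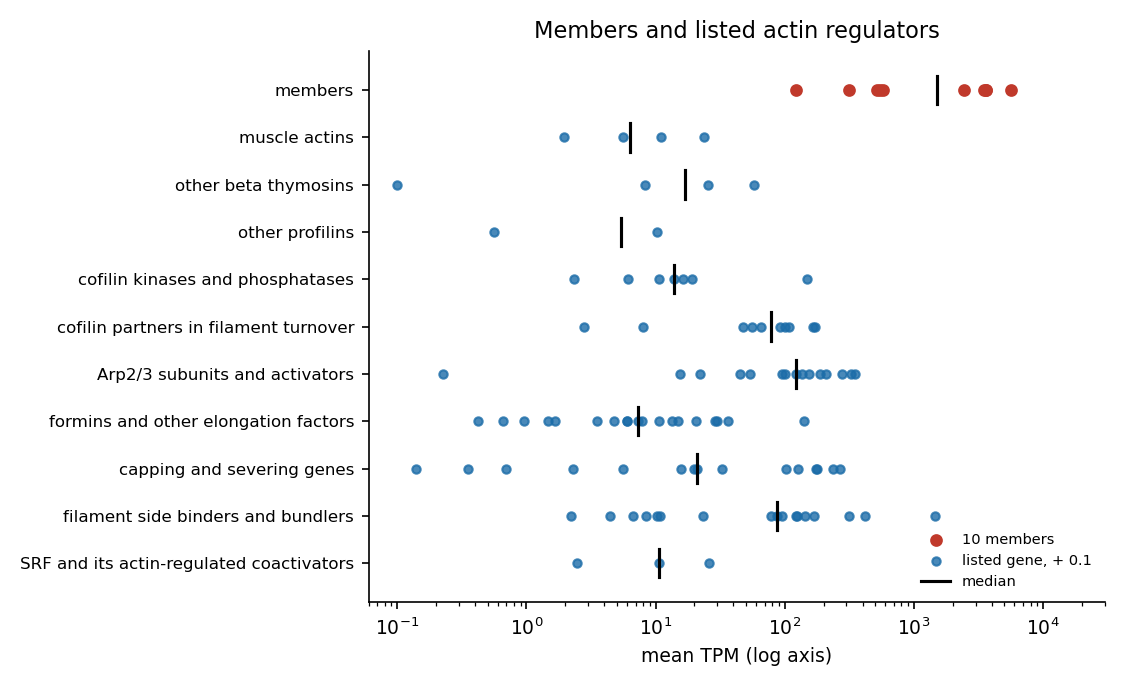
Mean TPM of the 2 libraries on a log axis for the 10 members (red) and for each list of actin regulators (blue, with 0.1 added so that 0 can be drawn); black bars are medians. The members' median is 1500 TPM, and the lists' medians run between 5.28 TPM for the other profilins and 121 TPM for the Arp2/3 genes.

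Actin genes are textbook targets of the serum response factor SRF, whose coactivators of the MRTF family bind actin monomers. Mrtfa had 24.11 TPM in replicate 1 and 27.71 TPM in replicate 2, Mrtfb had 9.73 and 11.35 TPM, and Srf had 2.50 and 2.27 TPM. SRF binds a motif called the CArG box, which reads the same way on both strands. It was searched in RefSeq promoters (GRCm38.p6, 250 bases before to 50 after each start site), which were at hand for 9 of the 10 members, Actb not among them. A match stood in 1 of those 9 genes, Actg1, at 90 bases before the start site in the promoter chr11:120348446-120348745 (minus strand). It is shown with 10 bases on either side, and capitals mark the match.
Actg1 promoter: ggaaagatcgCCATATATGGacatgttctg

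For comparison, 535 of all 32851 promoters searched (1.63%) held a match. Counted by gene, as for the members, 488 of 27025 genes (1.81%) had one. A match describes the sequence and not binding, and no data on binding were analysed here.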

How the data were processed

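Gene and transcript tables of 2 libraries were used. Per the labels, RNA above 200 nt was extracted with mirVana and 10 ng entered a library. Per the file headers, the authors deposited expected counts, TPM, FPKM, posterior means of these, the posterior SD of each count (a score of assignment error) and, for a transcript, its percent within the gene. The deposited notes name build mm10 and annotation GENCODE M4. No source used here gives the aligner, the counting tool, their versions or the use of strand. Deposited TPM values cover all rows, spike-ins included (2.3% and 2.42% of expected counts).

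Levels are the deposited TPM values, as mean ± SD of 2 libraries. Expected counts were rounded, spike-ins and rows without an Ensembl ID were left out, and log2 ratios of replicate 1 over replicate 2 used TMM sizes (edgeR 4.0.16, R 4.3.3), a pseudocount of 0.5 and 95% Clopper-Pearson counting intervals. Genes with a mean of 10 counts or more entered the comparison, and past 1.5-fold either way counted as different. PCR copies cannot be told from separate molecules, so intervals cover counting error only. An exact sign-flip test of 2 libraries cannot go below p = 0.5, so none was run. The ratio step was checked on simulated data. Each pool is a labelled biological replicate.

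Symbols were matched by Ensembl ID; coordinates, exons, coding sequences and biotypes came from GENCODE M21 on the same build, and promoters from RefSeq. Copies were found with BLAST 2.17.0. Tools also included Python 3.11.15, pandas 2.3.3, Biopython 1.88 and DESeq2 1.42.0 (as an alternative scaling). Pdxp was not matched and is not used here.

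The members and lists were chosen with earlier results of these data known. Named were all members, the 2 highest and the lowest gene of each list by mean TPM, member transcripts at 5% or more and the 2 Dbn1 forms, the 2 highest annotated copies of a member by TPM, and the genes next to the highest and lowest member in rank. The list medians are means of the medians in the 2 libraries.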

Additional observations from a re-analysis of the deposited data

How the results depend on the processing

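No paired analysis was possible because the series has 1 group, whose 2 libraries share no replicate number with another group. Division by transcript length moved 4 of the 5 paralog ratios. With expected counts not divided by length, the mean log2 ratio was 0.64 for Actb over Actg1, within its SD, 0.45 for Tmsb4x over Tmsb10, 2.15 for Cfl1 over Dstn, 2.87 for Cfl1 over Cfl2 and -1.24 for Pfn1 over Pfn2; the sign changed for the thymosins alone. Adding near-identical copies moved Actb over Actg1 to 0.60. Without either replicate the ratios ran from 0.61 to 0.64 for Actb over Actg1, from -0.14 to 0.03 for Tmsb4x over Tmsb10, from 2.93 to 2.94 for Cfl1 over Dstn, from 4.30 to 4.31 for Cfl1 over Cfl2 and from -0.10 to -0.09 for Pfn1 over Pfn2. The count of genes past 1.5-fold, 1492, was 491 past 2-fold, 6855 without the filter on low counts and 814 where the counting interval also had to leave out 1; the count of members was 0 under each of the 4 alternatives run. The Dbn1 adult-exon share was 1.02% as a share of expected counts and 0.935% among protein-coding transcripts alone, and ran from 0.820% to 0.910% without either replicate. Spike-in scaling moved the between-pool ratios of all 10 members past the reach of their counting intervals, and DESeq2 size factors, total count and deposited TPM moved none by as much. List medians moved by more than 1.5 times over the genes at 1 TPM or more alone for the other beta thymosins (25.5 TPM), the other profilins (10.1 TPM) and the capping and severing genes (67.8 TPM). As a mean of log2(TPM + 1) turned back to TPM, they did so for the other beta thymosins (9.89), the other profilins (3.03), the cofilin partners (51.8), the Arp2/3 genes (78.8) and the side binders (51.5). With 0.1 in place of 1 these were 5.79, 2.29, 50.3, 70.6 and 49.3. The 2 libraries give no estimate of the spread beyond their own difference.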
